A study of Mus musculus with 9 samples.

Results

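The 9 genes described here, Ankrd1, Ankrd23, Xirp1, Xirp2, Csrp3, Nrap, Fhl1, Fhl2 and Pdlim3, form a set of cardiomyocyte genes linked to mechanical stress. They were chosen by name, as 9 of the 23747 genes in the tables, with earlier results of these data known. All 9 passed the filter on low values. They were read in 10534 cardiomyocyte nuclei of 49171 nuclei in all, from single-nucleus RNA sequencing (sNuc-seq) of 9 mouse hearts. In sNuc-seq every captured transcript carries a unique molecular identifier (UMI), so that UMIs count molecules. In the 3 sham mice a needle was passed but no vessel tied, after 7 days of vehicle given by gavage. The 3 I/R mice had the same vehicle, and a coronary artery was then tied for 30 min and reopened for 24 h of reperfusion. The 3 SBP mice received Shexiang Baoxin Pill, a traditional Chinese medicine that the labels name MUSKARDIA, for 7 days, followed by the same ischemia and reperfusion. All were C57BL/6 mice with no engineered allele, and per the study's methods the tissue came from below the ligature, so the piece of a ligated heart mixed injured and surviving muscle in a proportion the files do not give.

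Cardiomyocytes pull on each other and on their surroundings with every beat, and their Z discs and costameres, which anchor the contractile filaments and join them to the membrane, also sense the pull. Ankrd1 and Ankrd23 are ankyrin repeat proteins that bind the elastic protein titin and also enter the nucleus. Xirp1 and Xirp2 bind actin at intercalated discs, and Nrap links actin to the same junctions as myofibrils form. Csrp3 is the muscle LIM protein of the Z disc, Fhl1 and Fhl2 are LIM-only proteins that bind titin, and Pdlim3 is a PDZ and LIM protein that binds alpha-actinin. Ankrd1 is a known target of the TEAD factors and their partner YAP, and several of the others are known targets of MRTF and SRF, pathways that respond to tension in actin.

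The cardiomyocytes formed 1 cluster, in which all 7 of the cardiomyocyte marker genes were detected in over 10% of the nuclei. A mouse gave 941 to 1489 cardiomyocyte nuclei with a median of 3174 to 5717 UMIs. The summed markers of fibroblasts in these nuclei reached 131.8 to 137.5 CPM (UMIs scaled to a fixed library total) in sham, 228.4 to 269.5 in I/R and 171.2 to 203.2 in SBP, and 2 of 6 tested were called higher in I/R. The myeloid markers summed to 51.08 to 55.47, 86.91 to 162.5 and 61.23 to 88.4 CPM, with 1 of 9 called. In fibroblast nuclei the same fibroblast list summed to 2792 to 6293 CPM, and in myeloid nuclei the myeloid list to 4217 to 6255 CPM. No T cell, B cell, endothelial or cardiomyocyte marker was called, and no marker was at 0 in every mouse. The cardiomyocyte markers summed to 43850 to 56290 CPM in sham, 29770 to 50900 in I/R and 35620 to 36740 in SBP. The B cell markers summed to 7.66 to 15.7, 1.71 to 6.03 and 2.07 to 3.24 CPM, and the T cell markers to 9.98 to 14.4, 2.28 to 10.2 and 3.04 to 6.32. The part of this foreign RNA in the results below was not tested. The first I/R mouse stood apart from the other 2 I/R mice in several of the 9 genes, and results that rest on it are given with and without it. In Ankrd1, Xirp1 and Pdlim3 the second I/R mouse stood above the other 2. In sums over nuclei, fewer expressing cells and less RNA per cell cannot be told apart.

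The first question was how the genes differed after ischemia and reperfusion. Ankrd1 measured 184, 135.6 and 218.5 CPM in the 3 sham mice, 481.3, 1911 and 638.1 in the I/R mice and 2002, 861.9 and 668.6 in the SBP mice. Every ligated heart lay above every sham heart, and 1 mouse of each ligated group was far above the others. The sham mean was 179 ± 41.6 (SD, n = 3), beside 1010 ± 784 for the I/R group and 1177 ± 720 for the SBP group. The log2 fold change of I/R against sham was 2.24 with a standard error (SE) of 0.52, and it did not pass the call after adjustment over 12890 genes (limma, Benjamini-Hochberg adjusted p = 0.0940). That of SBP against sham was 2.57, with the same SE and an adjusted p of 0.0822. A gene was called at an adjusted p of at most 0.05 together with an absolute log2 fold change over 0.25.

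Fhl1 also separated the groups. Its CPM was 50.93, 43.53 and 58.74 in sham, 67.38, 104.9 and 104.1 in I/R and 130.2, 108.2 and 102.9 in SBP. In these sums the I/R and SBP mice again all exceeded the sham mice. The log2 fold change against sham was 0.82 (SE 0.20, adjusted p = 0.0978) in I/R and 1.14 (SE 0.20, adjusted p = 0.0589) in SBP, neither called. Pdlim3 was nearly constant among sham mice, with 54.71, 54.63 and 49.97 CPM. It reached 76.19, 201.5 and 97.66 CPM in I/R and 406.6, 79.41 and 194.4 in SBP, all above sham but spread over a wide range. Its log2 fold changes against sham were 1.096 (SE 0.52, adjusted p = 0.373) and 1.78 (SE 0.52, adjusted p = 0.190).

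The pair of actin-binding Xin genes behaved differently from each other in spread. Xirp1 measured 28.02, 26.95 and 24.89 CPM in sham, 28.9, 67.37 and 37.3 in I/R and 65.97, 33.09 and 38.31 in SBP, so the lowest I/R mouse lay barely above the highest sham mouse. Without scaling between samples the groups overlapped, at 27.9 CPM in that I/R mouse and 28.8 in the second sham mouse. Xirp2 measured 392.5, 359.1 and 529.9 CPM in sham, 632.1, 533.6 and 603.9 in I/R and 733.2, 590.7 and 744.5 in SBP. Here too the ligated mice lay above the sham mice, with the second I/R mouse barely above the third sham mouse. The log2 fold change of I/R against sham was 0.63 (SE 0.31, adjusted p = 0.383) for Xirp1 and 0.48 (SE 0.19, adjusted p = 0.296) for Xirp2. In SBP against sham it was 0.70 for both, with an adjusted p of 0.352 for Xirp1 and 0.162 for Xirp2 (limma). Nrap was 334.5, 355 and 294 CPM in sham, 333.1, 567.1 and 506.3 in I/R and 649.8, 366.7 and 472 in SBP. The first I/R mouse fell within the sham range, and the SBP mice all lay above it (log2 fold change of SBP against sham 0.56, SE 0.25, adjusted p = 0.354).

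The other 3 genes overlapped between groups in both comparisons with sham. Ankrd23 was scarce, at 9.466, 5.477 and 3.728 CPM in sham, 15.3, 12.94 and 7.484 in I/R and 18.44, 5 and 14.09 in SBP. Csrp3 had the smallest difference of the set, with 264.3, 265.5 and 293.6 CPM in sham, 261.2, 269.1 and 305.5 in I/R and 306.3, 258.4 and 394 in SBP. Its log2 fold change of I/R against sham was 0.02 with a 95% confidence interval from -0.38 to 0.42. Fhl2 was the only member with a negative estimate against sham, at 9028, 7091 and 6854 CPM in sham, 9006, 3467 and 3462 in I/R and 5274, 6115 and 6878 in SBP. The first I/R mouse had the sham level and the other 2 were below every sham mouse. The log2 fold change of I/R against sham was -0.67 (SE 0.34, adjusted p = 0.402).

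**Figure D1:**
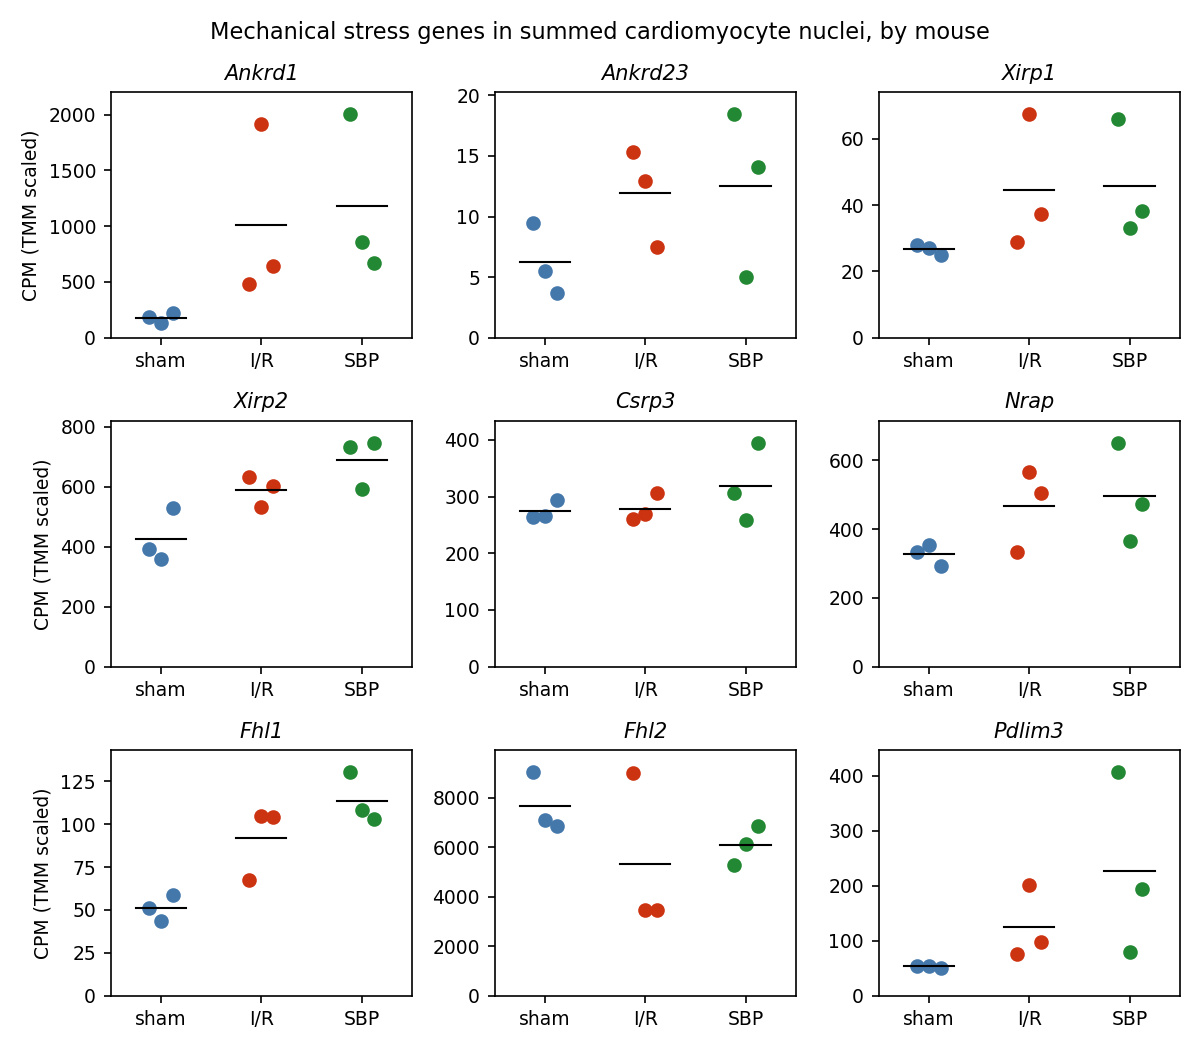
CPM of each of the 9 genes (vertical axes, linear from 0) in the summed cardiomyocyte nuclei of each mouse, by group, with the group mean as a line. Ankrd1, Xirp1, Xirp2, Fhl1 and Pdlim3 separate the 6 ligated mice from the 3 sham mice after scaling. Xirp1 overlaps without scaling, and Fhl1 overlaps in nuclei thinned to equal depth. Csrp3 does not separate them, and Fhl2 is low in 2 of 3 I/R mice.

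As a set, 0 of 9 members were called in I/R against sham by limma, where 0.861% of the 12890 genes were called, and the precision-weighted fit (voom) also called 0. Unadjusted p was under 0.05 for 3 members, Ankrd1, Xirp2 and Fhl1, and for 14.2% of all genes. For 5 members all I/R mice exceeded all sham mice, and none was lower without overlap. Over all genes 16.6% did not overlap in either direction, and 8.2% were higher without overlap. The median log2 fold change was 0.63 over the members and -0.027 over all genes. Because the set was chosen with earlier results of these data known, its counts and median are a description. An exact permutation test of 3 mice against 3 cannot give a p below 0.1. Without the first I/R mouse, Ankrd1, Fhl1 and Fhl2 were called (6.51% of all genes were), so the calls in this comparison depend on that animal.

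SBP against sham gave a like picture with the same sham mice. Limma called 0 of 9 members, against 0.124% of all genes, voom also called 0, and 6 members had an unadjusted p under 0.05, as did 13.4% of all genes. The 6 members that were higher without overlap were those of the I/R comparison and Nrap, where 10.7% of all genes were higher without overlap and 23.2% did not overlap in either direction. With only the 6 samples compared, Ankrd1 and Fhl1 were called, where 3.19% of all genes were. Both were also called without the first I/R mouse (2.21% of all genes were) or the second (0.353%), and Fhl1 without the third (0.386%). These mice enter this fit only through the shared spread, the scaling and the choice of genes tested. Without them 12620, 12757 and 12683 genes were tested, in place of 12890.

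A further comparison, chosen after the values were seen, set the 6 ligated mice together against the 3 sham mice. Limma called Ankrd1 (log2 fold change 2.41, SE 0.44, adjusted p = 0.0247) and Fhl1 (0.98, SE 0.18, adjusted p = 0.0225), 2 of 9 members, where 1.79% of all genes were called. The exact permutation p was 0.0119 for each, and for Xirp2 too, the smallest that 6 against 3 can give. The grouping was chosen after the ligated mice were seen to lie above the sham mice, so no support is drawn from this p. Xirp2 (0.59, adjusted p = 0.0922) and Pdlim3 (1.44, adjusted p = 0.135) were not called. Ankrd1, Xirp1, Xirp2, Fhl1 and Pdlim3, 5 of 9, were higher without overlap, against 4.61% of all genes, and 9.29% did not overlap in either direction. Leaving out 1 mouse at a time, the adjusted p of Ankrd1 rose to 0.104 without the first sham mouse and that of Fhl1 to 0.102 without the second, and each call then ended. Over these fits 14 to 904 genes were called.

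The question of pre-treatment was SBP against I/R. No member differed beyond the spread between mice. Limma called 0 of 9 members and 0% of all genes, voom also called 0 members, 0 members had an unadjusted p under 0.05 (2.25% of all genes did), and 0 members separated without overlap, against 5.64% of all genes (2.67% higher). Pdlim3 had the largest estimate, a log2 fold change of 0.68 with a 95% interval from -0.46 to 1.83, and the estimate ran from 0.14 to 1.29 when 1 mouse was left out. The interval of Ankrd1, with an estimate of 0.32, ran from -0.83 to 1.48, and that of Fhl1, with 0.32, from -0.12 to 0.76. Xirp2 and Csrp3 had estimates of 0.22 and 0.18, with intervals from -0.21 to 0.65 and from -0.22 to 0.57. The adjusted p was 0.9999 for every member. The upper bounds for Ankrd1, Fhl2 and Pdlim3 exceeded a log2 fold change of 1, and the lower bound for Ankrd23 was -1.02, so the test does not show that the groups were alike.

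**Figure D2:**
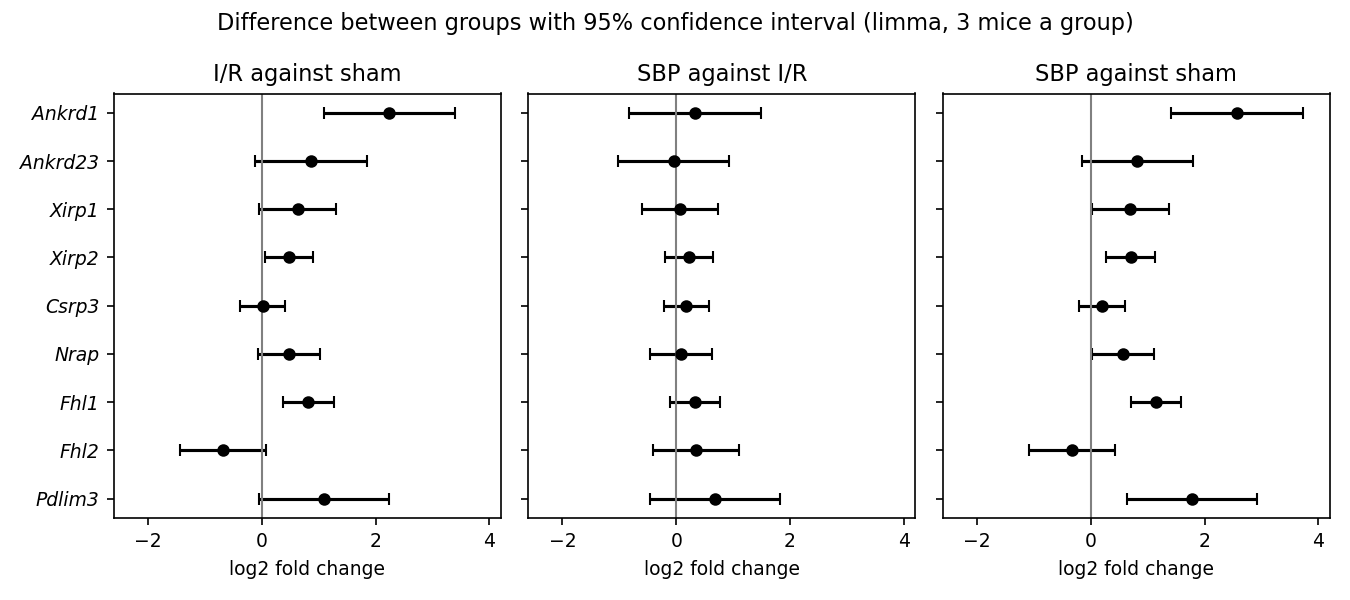
Log2 fold change of each gene (horizontal axis) with its 95% confidence interval from limma in the 3 comparisons, 3 mice a group. Ankrd1 and Fhl1 lie farthest from 0 relative to their intervals in both comparisons with sham, and every interval of SBP against I/R includes 0.

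The genes of the same pathways were read for context from lists written by name, with earlier results of these data known. The list medians stand beside -0.027 over all genes. Of the relatives of the members (15 tested, median log2 fold change -0.118) none was called in I/R against sham. Those with the smallest p were Lmod3, an actin nucleator of sarcomeres, at 45.06, 46.13 and 40.1 CPM in sham and 26.89, 3.806 and 7.726 in I/R (adjusted p = 0.0994), and Pdlim5, a relative of Pdlim3, at 1588, 942.4 and 1851 CPM in sham and 2424, 3043 and 2315 in I/R (adjusted p = 0.199). Of the 15 relatives, Pdlim5 was higher and Lmod3 lower in I/R without overlap, 1 in each direction, where 16.6% of all genes did not overlap. Among 24 tested Z disc and titin partners (median -0.106) none was called, and Synpo2 and Tcap, the titin cap, had the smallest p (log2 fold changes -0.93 and -0.82, adjusted p = 0.123 and 0.138), and Tcap was called lower when the 6 ligated mice were grouped. Among 21 genes of costameres and integrins (median 0.090) none was called, with Zyx, which encodes the adhesion protein zyxin, at 0.90 and Itga7, an integrin subunit of muscle, at 0.74 (adjusted p = 0.142 and 0.169).

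Known targets and partners of YAP and TEAD were measured for 17 genes, and none was called. The list median was 0.071. Ccn1, a secreted YAP target, measured 16.85, 13.69 and 19.14 CPM in sham and 29.52, 100.1 and 50.82 in I/R (log2 fold change 1.64, adjusted p = 0.134). F3, tissue factor, was at 42.22, 33.73 and 41.21 CPM in sham and 22.87, 23.41 and 23.06 in I/R (log2 fold change -0.73, adjusted p = 0.138), and it was called lower when the 6 ligated mice were grouped. None of 17 MRTF and SRF targets and partners was called either, with a list median of 0.50. Tagln2 and Cnn2, a pair of actin-binding proteins, had log2 fold changes of 1.08 and 1.09 (adjusted p = 0.0634 and 0.140). Both were called higher when the 6 ligated mice were grouped. The grouped fit, here and for Tcap above, called 1.79% of all genes, and 14 to 904 genes when 1 mouse was left out.

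Load markers are secreted and fetal genes known to rise in strained hearts. In I/R against sham 4 of 17 were called higher and none lower, where 0.861% of all genes were called, with a median of 0.97. Timp1, an inhibitor of matrix proteases, rose from 0 to 0.577 CPM in sham to 6.76 to 17.32 in I/R (log2 fold change 3.204, adjusted p = 0.00303). Lgals3, galectin 3, rose by 3.36 (adjusted p = 0.00567) and Thbs1, thrombospondin 1, by 2.33 (adjusted p = 0.0119). Timp1, Lgals3 and Thbs1 are also genes of macrophages and fibroblasts, whose markers moved in the same direction as given above. Of 13 mechanosensitive channels (median -0.028) none was called, with Trpm4, a cation channel, at a log2 fold change of -0.64 (adjusted p = 0.159). Of 3 atrial genes (median -0.078) none was called (Stard10 and Nppa, adjusted p = 0.543 and 0.953), and of 2 skeletal muscle genes (median -0.525) 1 was called lower, Ckm, muscle creatine kinase, which is also a heart gene (-1.60, adjusted p = 0.0300). In SBP against sham 2 of the 17 load markers were called higher, Timp1 and Lgals3, where 0.124% of all genes were called, and in SBP against I/R no gene of any list was called.

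The sums hide how the transcripts were spread over nuclei. Each cardiomyocyte nucleus was therefore thinned at random to 1900 UMIs, which left out 1009 nuclei that were shallower. Ankrd1 was then found in 16.5%, 19.8% and 24.1% of the nuclei of sham mice, in 23.4%, 68.5% and 36.8% in I/R and in 67.6%, 44.5% and 42.9% in SBP. Unthinned, the ranges were 24.6% to 43.1%, 32.8% to 77.8% and 55.2% to 78.5%. The share of nuclei with 5 or more Ankrd1 UMIs was 0.167% to 1.16% in sham, 5.85%, 32.7% and 7.93% in I/R and 31.8%, 12.1% and 8.94% in SBP. In the first I/R mouse the share of nuclei with any Ankrd1 UMI lay within the sham range, while the share with many lay above it. The 10% of nuclei with the most Ankrd1 UMIs held 77.8% of them in that mouse, within the 65.7% to 79.0% of sham, and 41.4% and 60.9% in the other I/R mice.

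Xirp2 was the gene whose spread over nuclei differed most between ligated and sham hearts. Its share of nuclei with a UMI was 41.4%, 47.3% and 54.5% in sham, 40.6%, 47.3% and 36.3% in I/R and 47.4%, 49.2% and 45.7% in SBP, so it was not more widely detected after ligation. The variance of its UMIs over nuclei divided by their mean was 2.96, 1.40 and 1.43 in sham, 10.3, 5.42 and 34.7 in I/R and 9.71, 12.6 and 11.6 in SBP. All 6 ligated mice exceeded the sham mice, which held for 2.88% of 4832 genes found in at least 5% of the nuclei. Ranked by the ratio of the median of this quotient in ligated mice to that in sham mice, Xirp2 stood first of 4832 genes with a ratio of 7.65, where the median gene had 1.02. Shroom3 was second with 4.19 and Ankrd1 stood at rank 4 with 2.198. The quotient also grows with the level of a gene, and Ankrd1 differed in level far more than Xirp2.

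This spread came from a few nuclei with very many Xirp2 UMIs, and the cutoffs below were chosen after the values were seen and carry no test. Nuclei with 10 or more Xirp2 UMIs among 1900 numbered 2 of 1123, 1 of 1200 and 1 of 1392 in sham mice, 14 of 1008, 5 of 823 and 11 of 1173 in I/R mice and 7 of 862, 8 of 1016 and 15 of 928 in SBP mice. Together they were 60 of 5810 nuclei in ligated mice and 4 of 3715 in sham mice. The share was 0.072% to 0.178% in sham and 0.608% to 1.62% in ligated mice, without overlap, and it did not overlap at cutoffs of 5 or 20 UMIs either. The highest number in 1 thinned nucleus was 31 in sham and 110 in ligated mice.

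These rare nuclei carried much of the Xirp2 signal of a ligated heart. They held 35.0%, 14.0% and 45.6% of its Xirp2 UMIs in the I/R mice and 24.7%, 25.4% and 35.4% in the SBP mice, against 0.92% to 6.01% in sham. Without them Xirp2 measured 338, 373 and 487 CPM in sham, 331, 436 and 285 in I/R and 428, 391 and 392 in SBP, all from thinned nuclei. With them the same nuclei gave 359, 377 and 491 CPM in sham and 502, 504 and 519 in I/R. Without these nuclei the I/R and sham values of Xirp2 overlapped. Because the nuclei were chosen by their Xirp2 UMIs, a fall of Xirp2 on their removal is fixed by the choice, and only its size is a measurement. Ankrd1 in the same nuclei measured 160, 151 and 225 CPM in sham and 442, 2161 and 615 in I/R with them, and 157, 150 and 225 and 400, 2145 and 600 without them. Fhl1 in the first I/R mouse lay within the sham range both with them, at 61.1 CPM against 48.7, 47.8 and 64.3 in sham, and without them, at 55.1.

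Members other than Fhl2 were found more often in the same 60 nuclei, pooled over the ligated mice. Of these nuclei 14 came from the first I/R mouse and 15 from the third SBP mouse. They were chosen by a member of the set, and no share over all genes was computed, so the values are a description. Ankrd1 had a UMI in 90% of them, against 45.4% of the other 5750 nuclei of ligated mice, and Fhl1 in 63.3% against 14.2%. Csrp3 was found in 75% against 38.6%, Nrap in 83.3% against 53.8%, Pdlim3 in 40.0% against 20.5% and Xirp1 in 23.3% against 7.22%. Ankrd23 stayed scarce, in 8.33% (5 of the 60 nuclei) against 2.16%. Fhl2 was the exception, with 81.7% against 95.2%. Cardiomyocyte identity genes were present, with Ttn in 100% and Ryr2 in 96.7% of these nuclei, while Myh6, the adult heavy myosin, measured 2614 CPM against 6060 in the others. Of the markers of other cells, Col1a2 of fibroblasts was in 11.7% against 8.43% and Pdgfra in 1.67% against 1.72%. Pecam1 of endothelium was in 3.33% against 4.19%. Csf1r of macrophages was in 1.67% against 1.32% and C1qb in 1.67% against 2.57%. These shares are 7, 1, 2, 1 and 1 of the 60 nuclei. Col4a1, a collagen gene, was in 63.3% of the 60 nuclei. The part of doublets and foreign RNA in these nuclei was not tested. Before thinning the 60 nuclei had a median of 7236 UMIs and the others 5020.

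**Figure D3:**
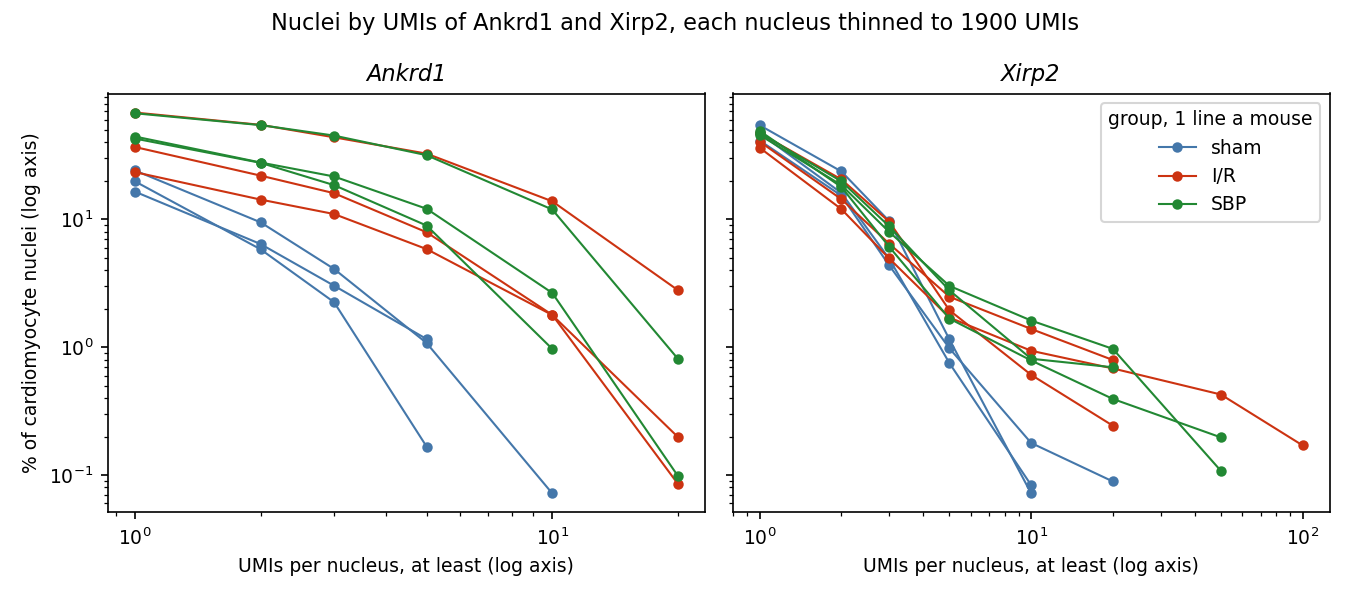
Share of cardiomyocyte nuclei (vertical axis, log scale) with at least the number of UMIs on the horizontal axis (log scale), 1 line a mouse, each nucleus thinned to 1900 UMIs; points at 0 are not drawn. The Ankrd1 lines of the ligated mice lie above those of sham from 2 UMIs on, whereas the Xirp2 lines of the groups overlap up to 3 UMIs and part from 5 on.

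Of the other members, Pdlim3 and Fhl2 had shares of thinned nuclei that did not overlap between sham and I/R, 2 of 9 members, where 15.2% of all tested genes did not overlap (7.61% higher and 7.57% lower). Unthinned they were Pdlim3 and Ankrd23, where 12.3% of all genes did not overlap (10.7% higher and 1.53% lower). Pdlim3 was found in 7.84% to 10.3% of thinned nuclei in sham, 10.9%, 25.6% and 14.0% in I/R and 43.4%, 11.7% and 24.4% in SBP. Fhl1 was found in 8.5% to 11.2% in sham, 9.82% to 15.7% in I/R and 13.9% to 19.1% in SBP. Nrap was found in 38.9% to 48.8%, 42.9% to 60.6% and 46.9% to 63.6%. Fhl2 was in nearly every nucleus, at 98.2% to 99.6% in sham, 97.8%, 93.3% and 91.0% in I/R and 93.6% to 98.6% in SBP, and the share with 5 or more UMIs ran from 83.0% to 92.7% in sham but was 88.4%, 55.5% and 50.4% in I/R. Ankrd23 was in 0.575% to 3.60% and Xirp1 in 4.92% to 12.3% of the nuclei of a mouse. Csrp3 was in 34.6% to 46.7%, with the groups intermingled.

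Correlation across nuclei was computed within each mouse after thinning, on the natural log scale, and is a description. The nuclei of a mouse share their library, and most counts are 0 or 1, so the values are weak and no finding is drawn from them. Of 36 pairs of members 30 had a mean Pearson r above 0 over the 9 mice, from -0.023 to 0.105 with a median of 0.025. All 28 pairs without Fhl2 had a mean above 0, though that of Ankrd23 with Csrp3 was -0.0007 without the first I/R mouse. Only 5 of the 28 pairs were above 0 in all 9 mice. The mean was also above 0 in 6 of 6 pairs of the reference genes Ttn, Myh6, Ryr2 and Actn2, with a median of 0.068. It was above 0 in 20 of 36 pairs of a member with a reference gene, with a median of 0.0092. Of these reference and mixed pairs, 2 and 6 were above 0 in all 9 mice. The highest were Ankrd1 with Xirp2 (0.105, range 0.0039 to 0.251), Ankrd1 with Nrap (0.0988, range 0.0639 to 0.152) and Ankrd1 with Csrp3 (0.0821, range 0.0401 to 0.138). For comparison, the reference pair Ryr2 and Actn2, the calcium release channel and alpha-actinin, had 0.233, and Ankrd1 had 0.016 with Ttn, 0.013 with Ryr2, -0.051 with Myh6 and 0.059 with Actn2, the last above its value with Ankrd23 (0.046).

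The 6 member pairs with a mean r below 0 all held Fhl2, and their sign rested in part on 1 mouse. Its mean r with Ankrd1 was -0.012 over all mice and 0.020 without the first I/R mouse, where it was -0.266, and Spearman's rho over all mice was 0.013. With Xirp1 it was -0.023 and, without that mouse, -0.020. Fhl2 had 0.129 with Ryr2, 0.108 with Myh6 and 0.101 with Ttn, and 0.107, 0.079 and 0.104 without that mouse. In the first I/R mouse Ankrd1 also had -0.291 with Myh6 and -0.219 with Ryr2, and without that mouse the means were -0.021 and 0.042. The mean r of Ankrd1 with the other 8 members was 0.068 ± 0.025 (SD over 9 mice) and ran from 0.033 to 0.108.

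Against all 4831 other genes in at least 5% of the thinned nuclei, the member most like Ankrd1 was Xirp2 at rank 16, followed by Nrap at 20, Csrp3 at 35, Xirp1 at 42, Pdlim3 at 60 and Fhl1 at 61. Fhl2 stood at 3408, with a mean r that changed sign without the first I/R mouse, as given above. Ankrd23 was under 5% and was not ranked. The 99th percentile of r with Ankrd1 was 0.077. The genes outside the set most like Ankrd1 were Shroom3, an actin-binding regulator of cell shape (mean r 0.214), Nppb, the gene of brain natriuretic peptide (0.166), the noncoding Gm13481 (0.160), Sorbs2, an adaptor of Z discs and adhesion sites (0.139), and Ppm1e (0.138). For the mean of the 9 standardised members they were Sorbs2 (0.170), Gm13481 (0.143), Nppb (0.141), Ppm1e (0.131) and Hectd2os (0.131).

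**Figure D4:**
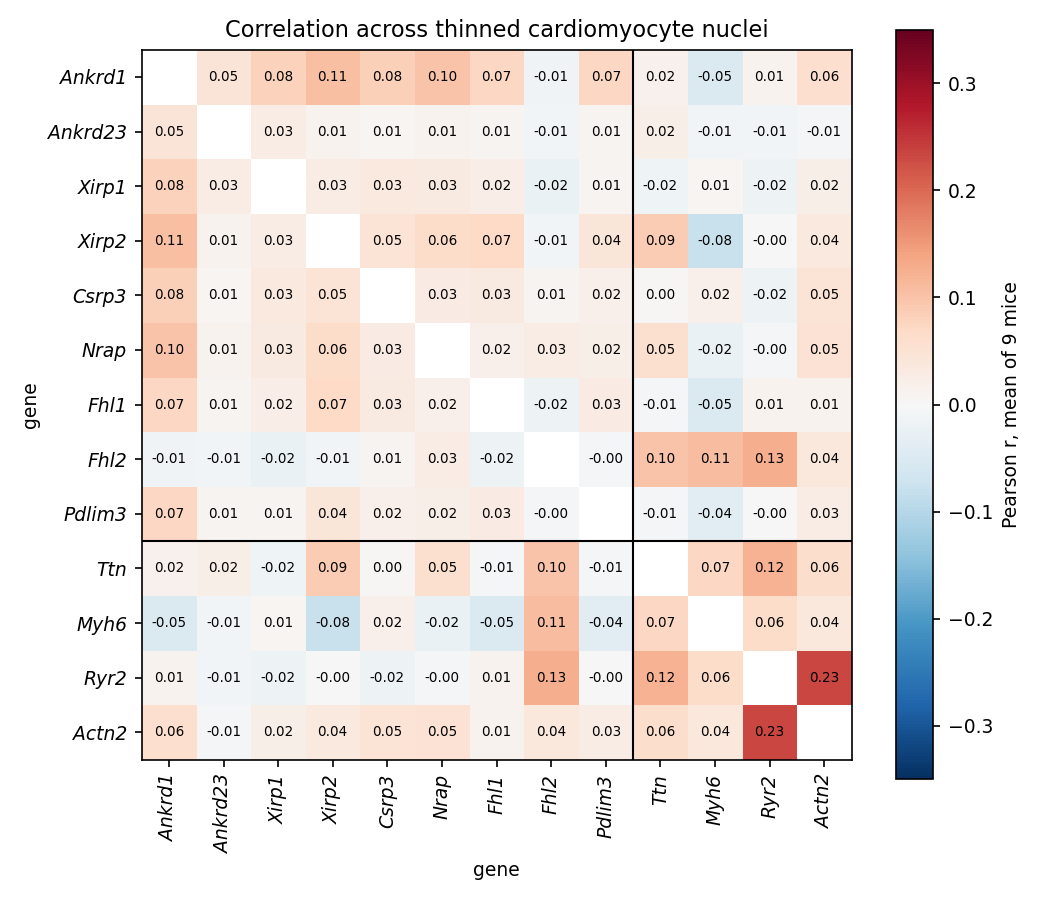
Pearson r between genes across thinned cardiomyocyte nuclei, mean of the values within 9 mice; the lines set the 9 members apart from 4 reference genes. The Ankrd1 row runs from 0.046 to 0.105 for the members other than Fhl2, with which it is -0.012 and, without the first I/R mouse, 0.020; Fhl2 is highest with Ryr2 (0.129), Myh6 and Ttn.

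The same nuclei and UMIs were also split by Ankrd1, which gives levels in place of r. Nuclei with 2 or more Ankrd1 UMIs were 5.83% to 9.48% of the thinned nuclei in sham, 14.3%, 54.9% and 21.99% in I/R and 54.6%, 27.9% and 27.7% in SBP. Relative to nuclei of the same mouse with no Ankrd1 UMI they held more Xirp2 (median ratio over mice 2.17, higher in 9 of 9), Xirp1 (2.08, 9 of 9), Nrap (1.51, 9 of 9) and Csrp3 (1.41, 9 of 9). The lowest ratios of these 4 genes were 1.06, 1.54, 1.21 and 1.02. Fhl1 was higher in 8 of 9 mice (1.51), Pdlim3 in 8 (1.36), Fhl2 in 8 (1.097) and Ankrd23 in 6 (1.88). Ankrd23 had only 1 to 3 UMIs in these nuclei of a sham mouse. Counts there were also low for Xirp1 (7, 10 and 11 UMIs in the 3 sham mice), Fhl1 (6, 7 and 20) and Pdlim3 (5, 9 and 25). Of the reference genes Ttn was at 1.01, Myh6 at 0.98, Ryr2 at 1.09 and Actn2 at 1.13, the last higher in 8 of 9 mice and above the ratio of Fhl2. The natriuretic peptide genes, which are load markers, had the ratios farthest from 1. Nppb was at 3.41 and Nppa at 2.35, both higher in 9 of 9. In the second sham mouse Nppa had 1 UMI in 70 such nuclei and a ratio of 1.06. Myh7, the fetal heavy myosin, was at 0.986 and higher in 4 of 9. These ratios were computed for the genes named here only, so no share over all genes stands beside the counts.

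Where else the genes were found was read from the sums of each cell type, with no test because clustering had used these genes. These CPM are not scaled between samples. Ankrd1, Ankrd23, Xirp1, Xirp2, Csrp3, Nrap and Fhl2 were highest in cardiomyocytes on average. Ankrd23 averaged only 10.2 CPM there. Endothelial nuclei were above cardiomyocytes in the second sham mouse (6.62 against 5.86 CPM) and the third (4.115 against 3.637 CPM). The second SBP mouse showed the same order (5.106 against 4.926 CPM). Ankrd1 was in 30.1% of cardiomyocyte nuclei thinned to 1000 UMIs and in 6.72% to 10.0% of those of the other named types, and Nrap in 32.8% against 2.62% to 6.47%. Fhl2 was in 91.2% of cardiomyocyte nuclei and still in 26.5% to 34.1% of the others, T cells and B cells included. The part of free RNA in these shares was not tested. Median depths before thinning were 4434.5 UMIs for cardiomyocytes, 1785 for fibroblasts, 1276 for endothelial nuclei and 1724 for myeloid nuclei.

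Fhl1 and Pdlim3 were not restricted in this way. Fhl1 averaged 131 ± 31.9 CPM in fibroblasts (SD, n = 9 mice) and 85.5 ± 30.1 in cardiomyocytes, 65.9 in endothelial and 16.0 in myeloid nuclei. In every sham mouse fibroblasts were above cardiomyocytes, with 93.8 to 118 CPM against 46.6 to 57.3. Pdlim3 averaged 206 ± 58.5 CPM in endothelial nuclei, from 149 to 297, and 134 ± 111 in cardiomyocytes, where the sham range was 48.8 to 58.4 and the SBP range 78.2 to 381. Smooth muscle cells and pericytes had no named cluster. By marker scores 601 nuclei of the endothelial clusters scored as such cells and 615 as cardiomyocytes. In the fibroblast clusters 1855 scored as such cells, 3530 as Schwann cells, 361 as cardiomyocytes and 7377 as fibroblasts. Other cells may thus lie in the endothelial and fibroblast sums, and the accuracy of the scores was not tested. Fibroblasts averaged 107, 119 and 166 CPM of Fhl1 in sham, I/R and SBP. For Pdlim3 endothelial nuclei gave 183 ± 50.1, 216 ± 66.8 and 218 ± 74.8 CPM in sham, I/R and SBP.

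**Figure D5:**
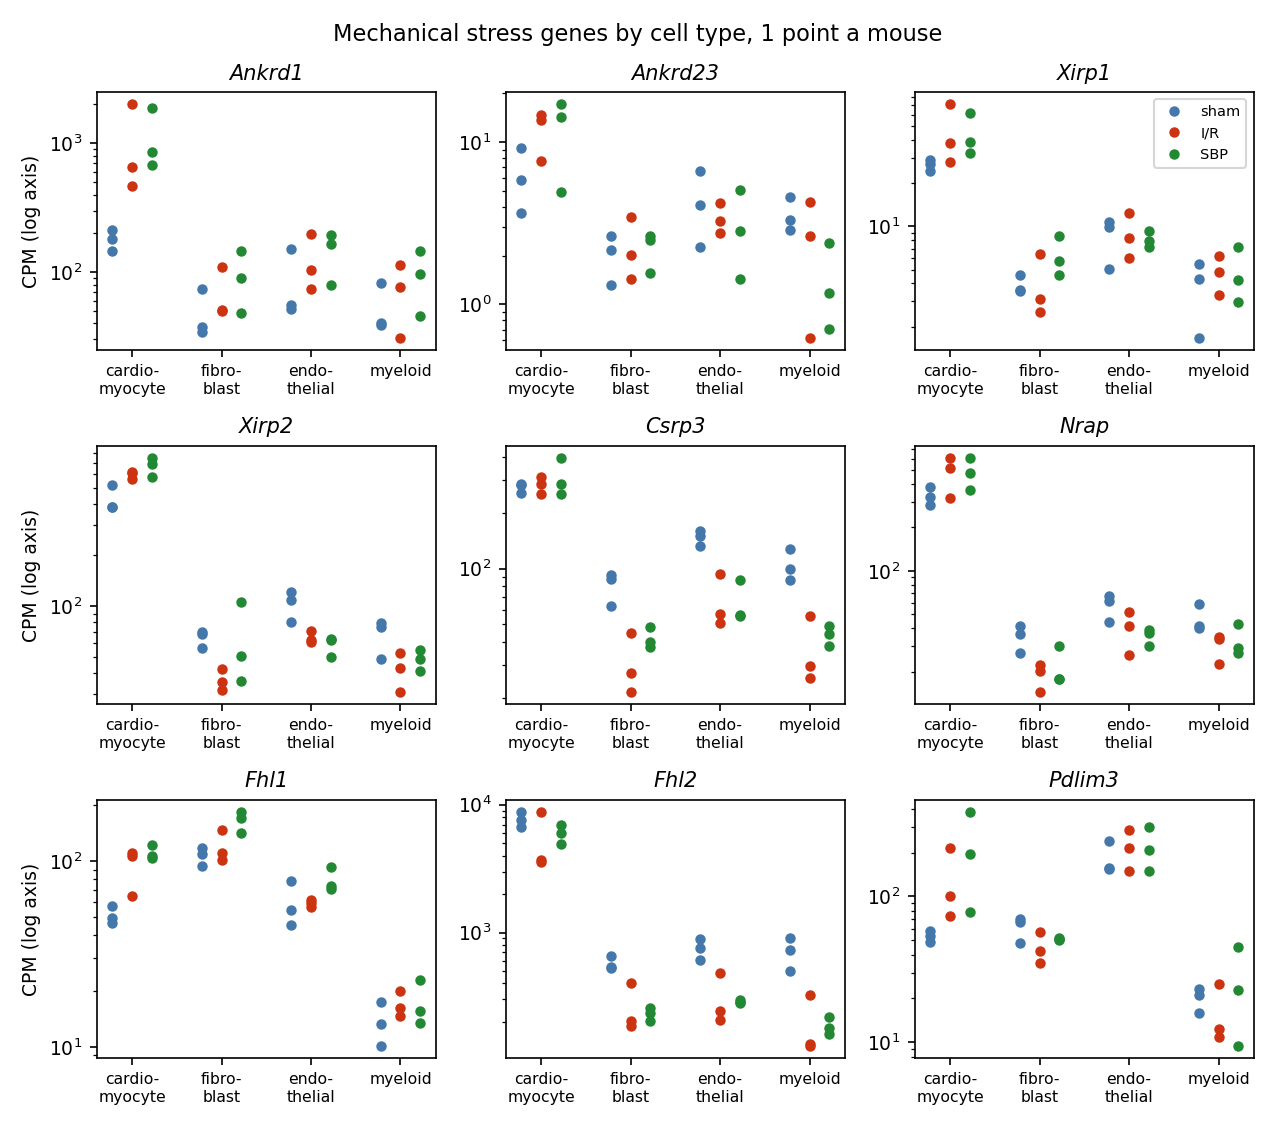
CPM of each gene (vertical axes, log scale) in the summed nuclei of 4 cell types, 1 point a mouse, coloured by group. Xirp1, Xirp2, Csrp3, Nrap and Fhl2 are higher in cardiomyocytes of every mouse than in the other 3 types, the Ankrd1 points of sham cardiomyocytes (145 to 213) overlap those of endothelial nuclei (51.6 to 199), Fhl1 is highest in fibroblasts and Pdlim3 is at least as high in endothelial nuclei as in sham cardiomyocytes; points at 0 are not drawn.

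The positions of the genes bear on how far their counts can be trusted. In GENCODE on build GRCm38, Ankrd1 lies on chromosome 19 (36111961 to 36120099, minus strand), Csrp3 on chromosome 7 (48830398 to 48848033, minus) and Pdlim3 on chromosome 8 (45885461 to 45919548, plus), with no other gene over them. Xirp1, on chromosome 9 (120013755 to 120023598, minus), lies wholly within the span annotated for Cx3cr1, a myeloid gene on the same strand. Ankrd23, on chromosome 1 (36530188 to 36536883, minus), shares 6691 bases with Gm42417 on its own strand. Counts of these 2 genes are therefore uncertain. Xirp2, on chromosome 2 (67446002 to 67526614, plus), and Nrap, on chromosome 19 (56320035 to 56390037, minus), overlap antisense genes. Fhl2, on chromosome 1 (43123074 to 43196984, minus), holds a pseudogene on the other strand, and Fhl1, on chromosome X (56731787 to 56793346, plus), a small nuclear RNA on its own.

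Start regions were searched for motifs of TEAD, SRF, MEF2 and GATA factors and for the E box CANNTG. The search was made because in the scaled sums Ankrd1, Fhl1 and Pdlim3 were higher in every ligated than every sham mouse, unlike Fhl2. Xirp2 was also higher in every ligated mouse, and Xirp1 only after scaling. In thinned nuclei Fhl1 overlapped, at 61.1 CPM in the first I/R mouse and 64.3 in the third sham mouse. RefSeq start regions on GRCm38.p6 matched 8 of the 9 members, with 12 regions in all, and Xirp1 was not among them. Each window ran from 250 bases before to 50 after a start, and both strands were searched. The TEAD motif CATTCC was in 14.7% of all 32851 windows, and Ankrd1, Ankrd23 and Pdlim3 held it, Ankrd1 and Pdlim3 at 2 places each. The MEF2 core TATTTATA was in 1.70% of windows and in those of Fhl1 and Fhl2. The CArG box, the site of SRF, was in 1.63% of windows and again in those of Fhl1 and Fhl2. Xirp2 held none of these 3 motifs in its windows. CANNTG was in 72.3% and GATA in 57.9% of all windows, and in 11 and 8 of the 12 here. Such a match is a description of letters and not of binding.

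The 250 bases before the start are shown for Ankrd1, Pdlim3, Fhl1 and Fhl2, 4 genes that were picked by their levels and hold these letters. Ankrd23, whose levels overlapped between groups, also holds CATTCC, 120 bases before a start, and is not shown. The letters run 5′ to 3′ on the strand of the gene, with CATTCC or its complement, TATTTATA and the CArG box in capitals.
Ankrd1 (chr19:36119845-36120094, minus strand): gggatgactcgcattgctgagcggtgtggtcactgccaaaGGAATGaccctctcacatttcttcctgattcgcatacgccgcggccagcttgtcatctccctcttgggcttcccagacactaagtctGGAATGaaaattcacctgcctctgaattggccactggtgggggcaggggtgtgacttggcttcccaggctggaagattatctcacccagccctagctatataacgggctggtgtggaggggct
Pdlim3 (chr8:45885237-45885486, plus strand): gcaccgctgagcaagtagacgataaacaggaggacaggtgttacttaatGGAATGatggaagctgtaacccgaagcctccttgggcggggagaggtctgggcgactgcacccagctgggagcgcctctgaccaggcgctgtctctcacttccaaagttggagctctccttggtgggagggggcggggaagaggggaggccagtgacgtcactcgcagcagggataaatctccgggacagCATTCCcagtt
Fhl1 (chrX:56779433-56779682, plus strand): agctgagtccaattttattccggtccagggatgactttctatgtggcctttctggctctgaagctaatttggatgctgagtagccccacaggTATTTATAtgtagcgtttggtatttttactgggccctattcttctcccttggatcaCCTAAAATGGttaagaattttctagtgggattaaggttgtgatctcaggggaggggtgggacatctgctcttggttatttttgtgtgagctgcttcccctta
Fhl2 (chr1:43196762-43197011, minus strand): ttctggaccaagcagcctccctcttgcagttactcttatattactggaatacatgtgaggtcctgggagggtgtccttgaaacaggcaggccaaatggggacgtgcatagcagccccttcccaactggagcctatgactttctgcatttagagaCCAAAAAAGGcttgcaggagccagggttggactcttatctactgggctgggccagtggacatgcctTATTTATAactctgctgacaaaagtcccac
In Ankrd1 the CATTCC letters begin 210 and 123 bases before the start, both read on the other strand, and in Pdlim3 201 and 11 bases before it. In Fhl1 TATTTATA begins 158 and the CArG box 102 bases before the start. In Fhl2 the CArG box comes first, 96 bases before the start, and TATTTATA follows 30 bases before it, and a second Fhl2 start region, not shown, holds a CArG box 31 bases before its start.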

How the data were processed

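Nuclei of 9 mouse hearts were measured by 10x sNuc-seq, with 3 mice in each group of the GEO labels (sham, I/R, SBP). The authors deposited expression on a natural log scale, ln(1 + 10000 × a gene's share of the UMIs of its nucleus). The submitters' processing notes name Cell Ranger 4.0, STAR, Seurat 3.2.0 and GRCm38, and the study's methods name other versions of some tools. They describe a limit on genes and mitochondrial share per nucleus and down-sampling of reads. Each nucleus's smallest value was taken as 1 UMI, and in every sample at least 99.99936% of the values were then whole to 0.1 UMI. A sample held 4576 to 6418 nuclei with medians of 1540 to 2031 UMIs. Between 4 and 14 barcode sequences were shared by each pair of samples.

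Nuclei were clustered with Scanpy 1.11.5 and named from fixed markers, and the names stand for nuclei like those types. Doublet scoring marked 0.173%, which were removed. It is taken not to have worked. UMIs of the cardiomyocyte nuclei were summed per mouse, scaled by trimmed mean of M values and tested as log2(CPM + 1) with limma 3.58.1 (R 4.3.3; trend, robust, 9 samples, 3 groups). This scale understates changes of low genes. Genes were kept if 3 samples reached the CPM that 10 UMIs give in the median library and all samples together held 15 UMIs. Calls used the study's thresholds (0.05 for adjusted p, 0.25 for the log2 fold change). The code was tested on simulated data. Nuclei were thinned by drawing UMIs without replacement, to 1900 (near the 10th percentile of cardiomyocytes) and, chosen after seeing the data, 1000 across types. Counting error alone limits low counts.

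The 9 genes, the gene lists and the motifs were chosen with earlier results of these data known. From each list the text names up to 3 genes called in I/R against sham with the smallest p, or otherwise the 2 with the smallest p, and the 5 genes outside the set most like Ankrd1 and most like the members' mean. One gene that this rule names is not reported here. Pdlim3's and Fhl1's start regions, the 60 nuclei and the Shroom3 rank were chosen after the values were seen. The labels name no separate litters or batches, so p-values measure the spread between these 9 mice.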

Additional observations from a re-analysis of the deposited data

How the results depend on the processing

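With 3 mice a group, single animals decided the counts. Leaving out 1 mouse at a time gave 0 to 3 members called in I/R against sham (3 without the first I/R mouse), 0 in SBP against I/R and 0 to 2 in SBP against sham, beside 23 to 821, 0 to 1 and 0 to 279 genes called over all. Of 621 member values under alternatives, 15 changed sign, none of them called. Over the left-out mice the log2 fold change of SBP against I/R ran from -0.12 to 0.92 for Ankrd1, -0.37 to 0.46 for Ankrd23, -0.15 to 0.28 for Nrap and -0.20 to 0.40 for Xirp1, and that of I/R against sham from -0.048 to 0.069 for Csrp3. In I/R against sham it also ran from 1.65 to 2.64 for Ankrd1, 0.69 to 1.39 for Pdlim3 and 0.29 to 0.89 for Xirp1. Csrp3 was -0.022 with the mean over nuclei, and Ankrd23 0.044 with marker scores (SBP against I/R). The cause was not tested.

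In I/R against sham 111 genes were called, 68 with only the 6 samples compared, 52 with voom weights and 231 with the SBP samples added, an alternative chosen after seeing the data in which 2 members were called. In SBP against sham 16 genes were called, 393 with only the 6 samples compared (2 members), 106 with marker scores (1 member, Fhl1), 27 without the filter on low values, 10 with the mean over nuclei, and 0 with a pseudocount of 5 CPM, with voom weights and with the replicate block. The replicate numbers did not pair the samples (correlations of same-numbered samples from -0.321 to 0.249), and with the block no member was called in any comparison (0 of 9).

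The mean r of Ankrd1 with the other 8 members was 0.0679 after thinning, 0.0976 unthinned, 0.0646 as Spearman's rho and 0.0629 to 0.0722 leaving out 1 mouse. The share of nuclei separated sham from I/R for 2 members after thinning, Pdlim3 (higher) and Fhl2 (lower), and unthinned also for 2, Pdlim3 and Ankrd23, beside 15.2% and 12.3% of all genes. Scaling by total UMIs or median of ratios, the other pseudocount, plain limma, doublet handling and clustering without the 9 genes called no member in any comparison. Low counts limit Ankrd23 and Xirp1 most.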

Other observations

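The 60 nuclei of ligated hearts with 10 or more Xirp2 UMIs also differed from the other 5750 in genes outside the set. Among genes found in at least 30% of them, the ratios of mean UMIs (each averaged over the 6 mice with equal weight, plus 0.05) were highest, after Xirp2, for Flnc, filamin C, a Z disc partner of Xirp2 (16.38), Rtn4, an endoplasmic reticulum protein (16.36), Tgm2, transglutaminase 2 (12.1), Actn1, the non-muscle alpha-actinin (11.4), Tgfb2 (11.04), Gask1b (8.98) and Enah, an actin regulator (7.87). Each was higher in 6 of 6 mice, but the filter and the ranking in these same nuclei favour that count, so no support is drawn from it. Flnc had a UMI in 68.3% of them and 10.9% of the others, and Enah was in 98.3%. Itga5, the fibronectin receptor subunit, was in 56.7%, with a ratio of 6.14. Nppb was in 55.0% against 11.1%, and Nppa in 23.3% against 2.21%. These nuclei were chosen by their Xirp2 UMIs after the values were seen, and they come from 6 mice with 5 to 15 nuclei each.

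Outside cardiomyocytes, Fhl2 was lower in the ligated mice in each large cell type. In endothelial nuclei it averaged 750 ± 136 CPM in sham (SD, n = 3), 310 ± 148 in I/R and 288 ± 7.86 in SBP, in fibroblasts 575 ± 73.2, 264 ± 121 and 232 ± 27.0, and in myeloid nuclei 712 ± 205, 197 ± 112 and 186 ± 29.1. Csrp3 in endothelial nuclei was 148 ± 13.5, 67.3 ± 23.2 and 65.9 ± 17.7 CPM. It was 81.1 ± 16.1, 31.2 ± 12.1 and 42.0 ± 5.58 in fibroblasts and 104 ± 21.0, 36.9 ± 16.2 and 43.6 ± 5.36 in myeloid nuclei. In cardiomyocytes Csrp3 did not differ by more than the spread between mice. The share of nuclei that were cardiomyocytes was 24.2% to 29.1% in sham, 16.7% to 21.97% in I/R and 18.6% to 19.4% in SBP. The part of free cardiomyocyte RNA in these values was not tested.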
